A study of Mus musculus with 24 samples.

Results

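Expression of 9 erythroid genes was followed across 24 libraries of mouse splenic T lymphocytes. The genes are Hba-a1, Hba-a2, Hbb-bs, Hbb-bt, Alas2, Slc4a1, Ank1, Add2 and Klf1, a set chosen by name with earlier results of these data known. The shares of all genes given beside member counts below involve no such choice. All 9 were found by symbol among the 34111 genes of the deposited count table, and all 9 passed the filter on low counts in every fit. The libraries came from C57BL/6N mice that were Atm-/- (KO) or Atmwt/wt (WT), where Atm encodes a kinase that signals DNA breaks. Mice of each genotype had received a transplant of B-cell lymphoma (lymphoma) or none (control), and RNA was read as 3′ tags, 1 short read at the poly(A) end of a transcript. Per the labels, CD8 and CD4 libraries were made from the same 12 pools of spleens, so the 8 groups of 3 are CD8 and CD4 libraries of KO lymphoma, WT lymphoma, KO control and WT control mice. The pools hold 22 mice: each WT lymphoma pool is 1 mouse, 1 WT control pool is 3 mice and each of the others is 2. The labels give neither the age of the mice nor the kind of Atm allele, and do not say how CD8 and CD4 cells were parted.

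Erythroid genes serve the making of red blood cells, which in mice takes place in the spleen as well as in bone marrow. Klf1, a zinc finger transcription factor, acts in early erythroblasts that still divide, and turns on globin, heme and membrane genes. Alas2 catalyses the first step of heme synthesis in erythroid cells, the alpha globins (Hba-a1, Hba-a2) and beta globins (Hbb-bs, Hbb-bt) form hemoglobin, and Slc4a1 (band 3), Ank1 (ankyrin) and Add2 (beta adducin) build the red cell membrane and its skeleton. Young red cells, called reticulocytes, have lost their nucleus and hold mostly globin messenger RNA. T lymphocytes do not make hemoglobin. A bulk library cannot tell apart more erythroid cells among the isolated cells and more erythroid RNA per cell.

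The members lie at separate loci except for the globin pairs (GENCODE M21 on GRCm38). Hba-a1 (chr11:32283511-32284465, plus strand) and Hba-a2 (chr11:32296489-32297298, plus strand) are neighbours, as are Hbb-bs (chr7:103826534-103828096, minus strand) and Hbb-bt (chr7:103812524-103813996, minus strand). Slc4a1 (chr11:102348824-102366203, minus strand), Ank1 (chr8:22974844-23150497, plus strand), Klf1 (chr8:84901928-84905291, plus strand), Add2 (chr6:86028681-86124409, plus strand) and Alas2 (chrX:150547375-150570638, plus strand) each stand alone. Transcripts of Hba-a2 and Hba-a1 matched at 537 of 538 aligned bases, with 177 bases in gaps. Those of Hbb-bs and Hbb-bt matched at 586 of 625, with 81 bases in gaps. Whole transcripts were aligned, and likeness at the 3′ ends that were read was not measured by itself. How the deposited counts split reads within each pair is therefore uncertain, and the sum of the 4 globins is given beside the single genes.

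Promoters of 4 members are shown because the data below divide the members into a globin block and a Klf1 block, and these are 2 of each. Each sequence holds the 250 bases before the RefSeq start site on GRCm38.p6, 5′ to 3′ on the gene's strand. They lie at chr11:32283422-32283671 on the plus strand (Hba-a1), chr7:103827929-103828178 on the minus strand (Hbb-bs), chr8:84901732-84901981 on the plus strand (Klf1) and chr6:86028431-86028680 on the plus strand (Add2). Capitals mark matches to letters searched on both strands: GATA letters with an A at their end (AGATAA or else TGATAA) or with a G (AGATAG or else TGATAG), the letters CCNCNCCC of a CACCC box, the CCAAT box and the TATAA of a TATA box. Overlapping matches run together.
Hba-a1: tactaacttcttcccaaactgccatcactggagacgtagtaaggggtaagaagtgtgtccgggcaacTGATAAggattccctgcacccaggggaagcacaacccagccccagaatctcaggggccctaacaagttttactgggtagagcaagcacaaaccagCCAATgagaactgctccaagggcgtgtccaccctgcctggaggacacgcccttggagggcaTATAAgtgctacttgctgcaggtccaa
Hbb-bs: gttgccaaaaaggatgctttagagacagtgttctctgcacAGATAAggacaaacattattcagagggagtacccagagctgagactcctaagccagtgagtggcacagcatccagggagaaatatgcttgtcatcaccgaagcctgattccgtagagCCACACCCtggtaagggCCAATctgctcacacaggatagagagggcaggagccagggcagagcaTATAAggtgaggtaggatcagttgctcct
Klf1: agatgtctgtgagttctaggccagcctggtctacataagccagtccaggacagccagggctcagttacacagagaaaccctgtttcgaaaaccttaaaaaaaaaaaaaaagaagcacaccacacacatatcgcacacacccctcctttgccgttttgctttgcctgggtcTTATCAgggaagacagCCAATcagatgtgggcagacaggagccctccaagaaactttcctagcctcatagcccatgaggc
Add2: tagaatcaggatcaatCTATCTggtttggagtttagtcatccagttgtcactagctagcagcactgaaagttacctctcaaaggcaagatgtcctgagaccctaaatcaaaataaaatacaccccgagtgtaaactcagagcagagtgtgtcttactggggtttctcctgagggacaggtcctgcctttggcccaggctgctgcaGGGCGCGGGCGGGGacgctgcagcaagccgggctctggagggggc

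RefSeq promoter entries were matched for 7 members, all but Slc4a1 and Ank1. GATA letters were in 6 of the 7, against 26.5% of 32851 promoters of the same length. CCAAT and TATAA were each in 5 of the 7, against 33.8% and 22.8% of all promoters, and the CACCC box was in 4 of the 7, against 45.9%. Hbb-bs alone held all 4 kinds, as 0.545% of all promoters did. Counted back from the start site, Hba-a1 had GATA letters at -183, CCAAT at -88 and TATAA at -27, and Hbb-bs had GATA letters at -210, a CACCC box at -93, CCAAT at -76 and TATAA at -29. Klf1 had GATA letters at -80 and CCAAT at -64, and no TATAA in this window. Add2 had GATA letters at -234 and overlapping matches to the CACCC box letters CCNCNCCC at -45 and -39, read on the minus strand. Those Add2 matches do not spell CACCC, and the CACCC in the Hba-a1, Klf1 and Add2 windows falls outside CCNCNCCC. All positions given are matches of letters and not measured binding sites. In this window Hba-a1 and Hba-a2 were alike at all 247 aligned bases, and Hbb-bs and Hbb-bt at 185 of 239. Matches within a pair are thus not independent, and the counts out of 7 hold both genes of each pair.

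Libraries held 6470482 to 10196062 counts, with a count for 15263 to 17707 genes. Atm stood at 26.9 to 107 CPM (a gene's counts relative to the library total, scaled to the same total in every library) in KO libraries and at 117 to 210.3 CPM in WT libraries, without overlap. Its 3′ tags do not show whether a disrupted transcript makes protein, and KO lymphoma 3 was lowest in both CD8 (40.1 CPM) and CD4 (26.9 CPM). Cd8a ran from 142 to 534 CPM in CD8 libraries and from 2.84 to 22.5 CPM in CD4 libraries. Cd4 ran from 1.45 to 7.94 CPM in CD8 libraries and from 71.1 to 134 CPM in CD4 libraries, so both co-receptor labels matched their genes. Mouse identifiers in the labels begin with S or B, and what the letters stand for is not stated. The pools WT control 3 and KO control 2 and 3 hold B mice, KO lymphoma 1 holds 1 of each, and the other 8 hold S mice.

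The 4 globins were detected in every library, and their sum took 0.0386% to 6.50% of all counts. In CD8 libraries the globins summed to 64953, 7741 and 1054 CPM in KO lymphoma 1, 2 and 3, and to 2835, 1165 and 832 CPM in WT lymphoma. CD8 controls held 1222, 3309 and 1997 CPM in KO mice and 629.9, 386 and 3952 CPM in WT mice. CD8 KO lymphoma 1 and 2 stood above every other CD8 library, and CD8 KO lymphoma 3 lay among the controls. In CD4 libraries the sums were 5921, 2052 and 3103 CPM in KO lymphoma and 3747, 3063 and 1381 CPM in WT lymphoma. CD4 controls held 5030.2, 34363 and 18927 CPM in KO mice and 785, 420.5 and 9307 CPM in WT mice. The high CD4 libraries were thus KO control 2 and 3 and WT control 3, which are the pools of B mice.

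Single globins kept near fixed proportions while their level moved over a wide range. Hbb-bs, a beta globin chain, ran from 141 to 23724 CPM, and Hba-a2, an alpha chain, from 109.9 to 19638 CPM. The highest library held 168 times the lowest for Hbb-bs, 165 times for Hbb-bt, 179 times for Hba-a2 and 154 times for Hba-a1. Alpha counts per beta count nevertheless stayed between 0.517 and 0.693 in all 24 libraries, with a median of 0.600. Hbb-bs counts per Hbb-bt count stayed between 1.26 and 1.89 (median 1.45), and Hba-a2 counts per Hba-a1 count between 1.97 and 4.48 (median 2.77). Reads of the alpha transcripts, alike at nearly all aligned bases, are split here as deposited. These are ratios of counts, not of transcripts, since each gene's 3′ end is captured with its own efficiency.

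Embryonic globins were close to absent. Hba-x and Hbb-bh2 had no count in any library, Hbb-y had 4 counts and Hbb-bh1 7 counts over all 24 libraries. The theta globins Hbq1a and Hbq1b had 52 and 72 counts over all libraries.

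Alas2 followed the globins library by library at lower levels, and Slc4a1 did so less closely. Alas2 stood at 488, 56.5 and 7.14 CPM in CD8 KO lymphoma 1, 2 and 3, at 21.2, 11.2 and 5.95 CPM in CD8 WT lymphoma, at 8.56, 21.7 and 14.6 CPM in CD8 KO controls and at 4.66, 3.38 and 28.5 CPM in CD8 WT controls. In CD4 libraries Alas2 had 47.8, 16.6 and 28.5 CPM in KO lymphoma, 26.3, 18.9 and 12.3 CPM in WT lymphoma, 32.9, 269 and 137 CPM in KO controls and 5.05, 3.35 and 64.0 CPM in WT controls. The highest 4 libraries were CD8 KO lymphoma 1, CD4 KO control 2 and 3 and CD4 WT control 3, as for the globins. Slc4a1, the anion exchanger of the red cell membrane, stood at 221, 27.0 and 8.74 CPM in CD8 KO lymphoma, 10.1, 6.81 and 2.17 CPM in CD8 WT lymphoma, 3.52, 19.4 and 10.2 CPM in CD8 KO controls and 1.16, 0.225 and 5.31 CPM in CD8 WT controls. In CD4 libraries it had 22.6, 6.71 and 37.2 CPM in KO lymphoma, 13.6, 11.7 and 4.40 CPM in WT lymphoma, 8.95, 195 and 60.7 CPM in KO controls and 2.42, 1.16 and 10.2 CPM in WT controls. The highest library held 979.8 times the Slc4a1 level of the lowest, which rests on 2 counts. Unlike Alas2, Slc4a1 stood higher in CD4 KO lymphoma 3 than in CD4 KO lymphoma 1. In CD4 WT control 3, among the highest 4 libraries for the globins, Slc4a1 (10.2 CPM) stood below CD4 KO lymphoma 3 (37.2 CPM) and CD8 KO lymphoma 2 (27.0 CPM).

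**Figure D1:**
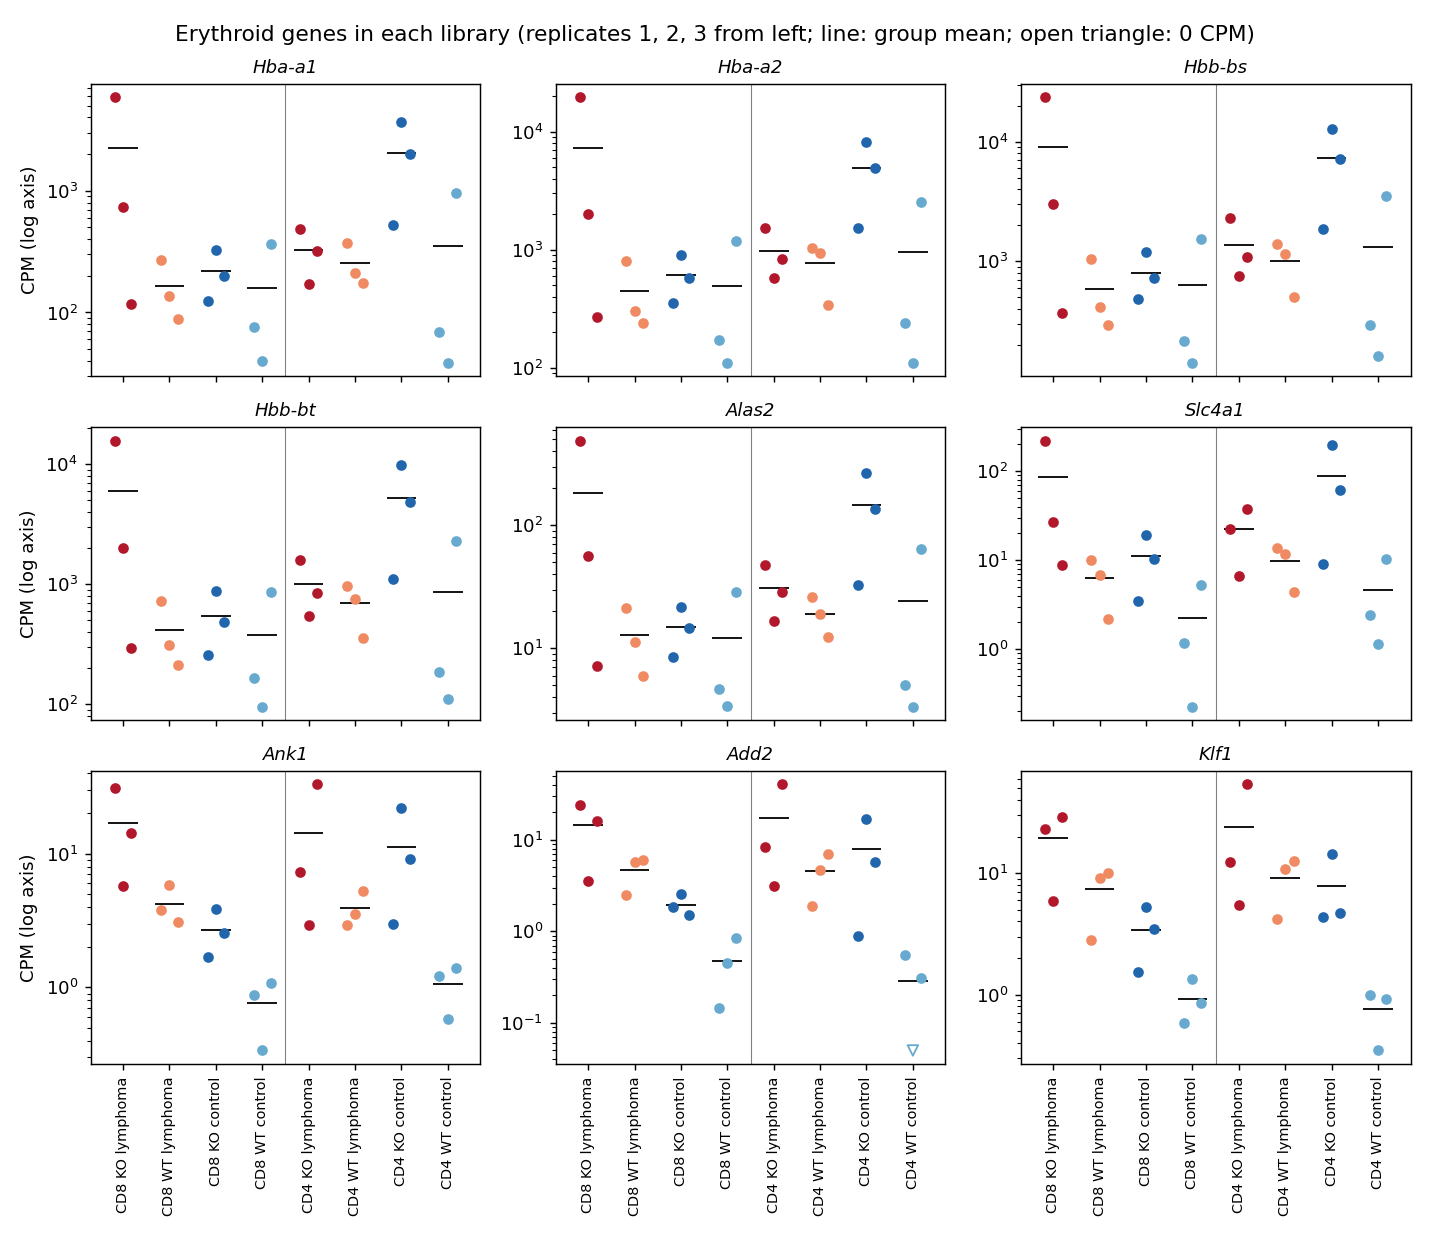
Level of each of the 9 erythroid genes in each of the 24 libraries, in CPM on a log axis, with replicates 1, 2 and 3 from left in each group and a line at the group mean; an open triangle marks 0 CPM. The globins, Alas2 and Slc4a1 are highest in CD8 KO lymphoma 1, where Hbb-bs reaches 23724 CPM, while Ank1, Add2 and Klf1 are highest in CD4 KO lymphoma 3, where Klf1 reaches 53.9 CPM.

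Klf1, Ank1 and Add2 had another order of libraries. Klf1 stood at 23.2, 5.88 and 29.1 CPM in CD8 KO lymphoma 1, 2 and 3, at 2.83, 9.12 and 10.1 CPM in CD8 WT lymphoma, at 1.53, 5.22 and 3.48 CPM in CD8 KO controls and at 0.582, 1.35 and 0.845 CPM in CD8 WT controls. In CD4 libraries Klf1 stood at 12.3, 5.51 and 53.9 CPM in KO lymphoma, at 4.17, 10.9 and 12.5 CPM in WT lymphoma, at 4.38, 14.5 and 4.68 CPM in KO controls and at 0.989, 0.347 and 0.927 CPM in WT controls. KO lymphoma 3 was the highest in both CD8 and CD4 cells, and the 6 WT control libraries were the lowest of all 24. WT control 3, where CD4 globins reached 9307 CPM, was no higher in Klf1 than the highest of the other WT controls in either co-receptor. Counts of Klf1 ran from 3 to 427 per library, so the low levels rest on few reads.

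Ank1, which ties the skeleton to band 3, had 30.9, 5.77 and 14.3 CPM in CD8 KO lymphoma, 3.78, 5.78 and 3.09 CPM in CD8 WT lymphoma, 1.68, 3.83 and 2.55 CPM in CD8 KO controls and 0.873, 0.338 and 1.09 CPM in CD8 WT controls. In CD4 libraries Ank1 had 7.27, 2.90 and 33.0 CPM in KO lymphoma, 2.91, 3.52 and 5.25 CPM in WT lymphoma, 2.98, 21.8 and 9.14 CPM in KO controls and 1.21, 0.578 and 1.39 CPM in WT controls. The WT controls were again the lowest group in both co-receptors. Add2, which caps actin filaments of the skeleton, had 24.1, 3.59 and 16.3 CPM in CD8 KO lymphoma, 2.48, 5.78 and 5.95 CPM in CD8 WT lymphoma, 1.83, 2.55 and 1.51 CPM in CD8 KO controls and 0.145, 0.451 and 0.845 CPM in CD8 WT controls. In CD4 libraries Add2 had 8.26, 3.10 and 40.4 CPM in KO lymphoma, 1.90, 4.69 and 6.95 CPM in WT lymphoma, 0.895, 17.0 and 5.80 CPM in KO controls and 0.549, 0 and 0.309 CPM in WT controls. Add2 had no count in CD4 WT control 2, which allows a level of up to 0.347 CPM (3 counts, counting error only).

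Ordered by group mean, Klf1 was lowest in CD4 WT controls (0.754 ± 0.354 CPM, SD, n = 3 libraries here and below) and CD8 WT controls (0.926 ± 0.391 CPM), which overlapped each other. CD8 KO controls (3.41 ± 1.85 CPM) came next, above all WT control libraries, and then CD8 WT lymphoma (7.34 ± 3.93 CPM), CD4 KO controls (7.85 ± 5.75 CPM) and CD4 WT lymphoma (9.19 ± 4.42 CPM). CD8 KO lymphoma (19.4 ± 12.1 CPM) and CD4 KO lymphoma (23.9 ± 26.2 CPM) were highest. From CD8 KO controls upward, neighbours in this order overlapped. The globin sum was ordered otherwise, with CD8 WT lymphoma lowest (1610.4 ± 1073 CPM), then CD8 WT controls (1656 ± 1992 CPM), CD8 KO controls (2176 ± 1055 CPM), CD4 WT lymphoma (2731 ± 1217 CPM), CD4 WT controls (3504 ± 5029 CPM), CD4 KO lymphoma (3692 ± 2000.4 CPM), CD4 KO controls (19440.00 ± 14673 CPM) and CD8 KO lymphoma (24583 ± 35121 CPM). Every pair of neighbours in the globin order overlapped, and in CD8 KO lymphoma and both groups of WT controls the SD exceeded the mean.

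Over the 24 libraries the members fell into a globin block and a Klf1 block. Pearson correlations of log2 CPM between globins were 0.991 to 0.998, those of Alas2 with globins 0.992 to 0.996, and those of Slc4a1 with globins 0.912 to 0.932. Klf1, Ank1 and Add2 correlated with each other at 0.897 to 0.956, but Klf1 and Add2 with the globins only at 0.373 to 0.506. Ank1 lay between, at 0.625 to 0.666 with the globins. Slc4a1 also correlated with Ank1 (0.849), Add2 (0.701) and Klf1 (0.618). After the group means were taken out, globins still correlated at 0.986 to 0.997 and Klf1, Ank1 and Add2 at 0.752 to 0.880. Klf1 and Add2 then correlated with globins at 0.0197 to 0.319, and Ank1, again between, at 0.428 to 0.497. Slc4a1 still correlated with Ank1 (0.717), Add2 (0.507) and Klf1 (0.262), so the blocks were not fully parted. These values describe 24 libraries that share 12 pools of mice, and globins also share sequence.

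The ratio of the blocks differed widely between libraries. Globin counts per Klf1 count were 2794, 1317 and 36.3 in CD8 KO lymphoma 1, 2 and 3, 1001, 128 and 82.6 in CD8 WT lymphoma, 799, 633 and 574 in CD8 KO controls and 1082, 286 and 4674 in CD8 WT controls. In CD4 libraries they were 480.4, 373 and 57.6 in KO lymphoma, 899, 281 and 111 in WT lymphoma, 1149, 2372 and 4043 in KO controls and 794, 1212 and 10037 in WT controls. The ratio was lowest in KO lymphoma 3 of both co-receptors and highest in CD4 WT control 3. In CD4 cells 5 of the 6 lymphoma libraries lay below every control library, and WT lymphoma 1 lay among the controls.

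**Figure D2:**
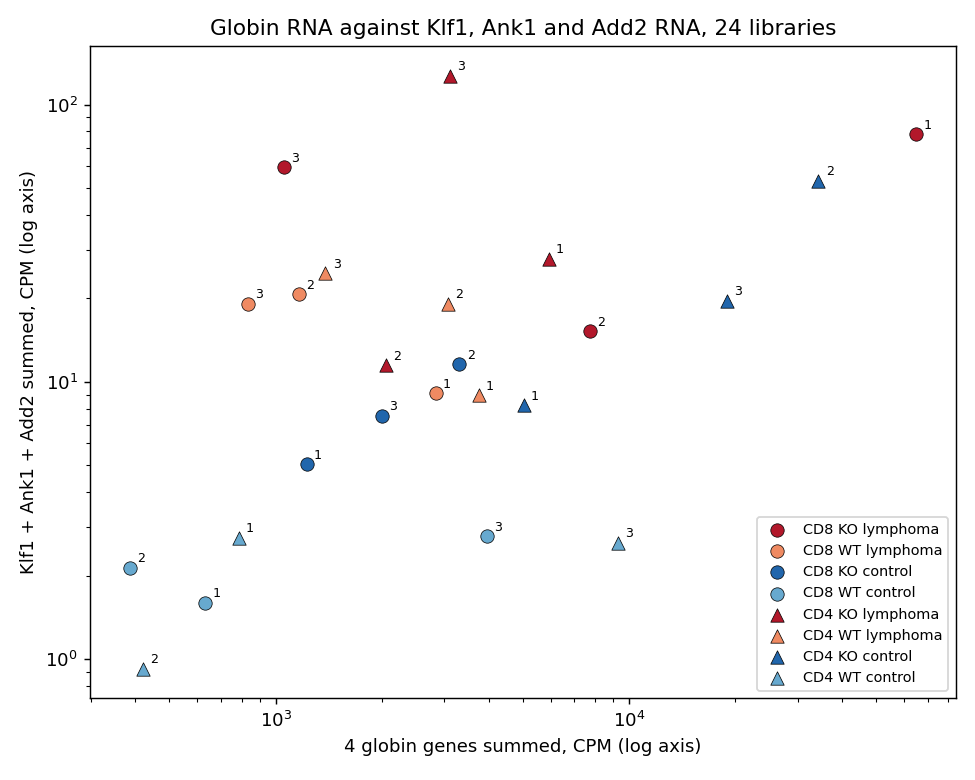
Summed level of the 4 globins (x axis, CPM, log scale) against the summed level of Klf1, Ank1 and Add2 (y axis, CPM, log scale), 1 point for each of the 24 libraries by group. CD8 KO lymphoma 1 lies far right at 64953 CPM of globins, and CD4 KO lymphoma 3 is highest at 127 CPM of Klf1, Ank1 and Add2 with 3103 CPM of globins.

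The first comparison asked whether erythroid genes in CD8 cells differed between mice with lymphoma and control mice. In KO mice Ank1 and Add2 rose, by 2.63 ± 0.57 (SE) and 2.88 ± 0.63 on the log2 scale, with adjusted p of 0.0482 and 0.0495 in the edgeR quasi-likelihood test. That is 2 of 9 members, against 2.18% of 12650 genes called and 1.39% called higher. Klf1 was higher by 2.47 ± 0.64 and did not pass (adjusted p = 0.0591). All 3 KO lymphoma libraries stood above all 3 KO controls for Ank1, Add2 and Klf1, as 14% of all genes tested did, and the other 6 members overlapped. Globins were higher by 3.37 to 3.57, with adjusted p of 0.127 to 0.137 and SE of 1.26 to 1.39, Alas2 by 3.60 ± 1.29 (adjusted p = 0.115) and Slc4a1 by 2.93 ± 1.15 (adjusted p = 0.138). These sizes rest on KO lymphoma 1: without it globins were higher by 0.89 to 1.09, Alas2 by 1.08 and Slc4a1 by 0.68. The median over the 9 members was 3.37, where that over all genes was -0.02. Unadjusted p was under 0.05 for all 9 members and DESeq2 called 8, counts to which the shares of genes called do not apply. Both edgeR calls, of Ank1 and Add2, rest on adjusted p close to 0.05. Leaving out any 1 of the 6 libraries compared ended them, except KO lymphoma 2, without which 3 members passed. The replicate number as a block ended them too.

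In CD8 cells of WT mice no member passed, where 1.42% of genes were called and 1.26% called higher. Unadjusted p was under 0.05 for 3 members in edgeR, and DESeq2 called 3. Here and below, shares of genes called are by edgeR's adjusted p. They are no measure for member counts by unadjusted p, DESeq2 or voom. Klf1 was higher by 2.94 ± 0.74 (adjusted p = 0.0723), Add2 by 3.23 ± 0.75 (adjusted p = 0.0564) and Ank1 by 2.48 ± 0.66 (adjusted p = 0.0814), each without overlap between the 3 lymphoma and 3 control libraries, as 14.2% of all genes were. Globins differed by -0.07 to 0.20, with the control library WT control 3 above all WT lymphoma libraries. Without that library they were higher in lymphoma by 1.52 to 1.71 (adjusted p = 0.594 to 0.624). The interaction, which sets the KO response against the WT response, called no member and no gene (0%) in edgeR, and no member in DESeq2 or voom. No member had an unadjusted p under 0.05 there. The unadjusted p for the globins ran from 0.0746 to 0.0859 at differences of 3.27 to 3.64, while Klf1 differed by -0.47 ± 0.95. Without KO lymphoma 1 the globin differences were 0.87 to 1.13.

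With both genotypes averaged, a comparison added after the values were seen that uses the same 12 CD8 libraries, Klf1 rose by 2.70 ± 0.49 (adjusted p = 0.00668), Ank1 by 2.56 ± 0.43 (adjusted p = 0.00504) and Add2 by 3.06 ± 0.49 (adjusted p = 0.00415). These 3 of 9 members stand against 17.7% of genes called and 11.6% called higher. The 3 calls held in all 22 alternatives, with differences of 2.43 to 3.06 for Klf1, 2.16 to 3.18 for Ank1 and 2.76 to 3.51 for Add2. Globins were higher by 1.72 to 1.84 (adjusted p = 0.162 to 0.203) and did not pass, and Slc4a1 was higher by 2.24 ± 0.88 (adjusted p = 0.103). Without KO lymphoma 1 the globins were higher by 0.41 to 0.64.

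Markers of other cells moved in the same CD8 libraries. In the averaged comparison, where 11.6% of all genes were called higher, 13 of 15 mitosis genes rose. So did 11 of 13 blood progenitor, 11 of 13 platelet, 9 of 15 neutrophil and 3 of 13 macrophage genes. Of pan-T genes 11 of 15 fell, and 0 of 15 B cell genes passed. Summed neutrophil genes ran from 446 to 3800.3 CPM in KO lymphoma, 239.9 to 314 CPM in WT lymphoma, 107 to 159 CPM in KO controls and 66.5 to 209 CPM in WT controls. Summed pan-T genes ran from 1467 to 2862 CPM in KO lymphoma, 2812 to 3534 CPM in WT lymphoma, 3495 to 3741 CPM in KO controls and 3967 to 4426 CPM in WT controls. CD8 KO lymphoma 1, highest in globins, was also highest of all 24 libraries in neutrophil genes (3800.3 CPM) and B cell genes (1806 CPM) and lowest in pan-T genes (1467 CPM). The part of these cells in the erythroid values was not tested, and no marker on these lists was at 0 in all libraries.

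In CD4 cells of KO mice the globins were lower and Klf1 was higher in lymphoma, and no member passed. All 4 globins, Alas2 and Slc4a1 were lower in KO lymphoma than in KO controls, at -2.70 to -2.06 on the log2 scale. Hba-a1 differed by -2.70 ± 1.06 (adjusted p = 0.27) and Hba-a2 by -2.35 ± 1.01 (adjusted p = 0.308), both lower without overlap, as 10.1% of all genes were. Klf1 was higher by 1.53 ± 0.75 (adjusted p = 0.363), Add2 by 1.05 ± 0.97 and Ank1 by 0.27 ± 0.78, each with overlap. edgeR called 0 members and 0% of 12808 genes here, with unadjusted p under 0.05 for 5 members, while over all genes DESeq2 called 343 and limma voom 703. DESeq2 and voom called none of the 9. Without KO lymphoma 3, Add2 turned to -0.51 and Ank1 to -1.18. KO control 2 and 3 are pools of B mice. With the share of B identifiers as a covariate the globins differed by only -0.88 to -0.52 (edgeR adjusted p = 0.491 to 0.665), and Slc4a1 turned to 0.12.

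In CD4 cells of WT mice Klf1 was higher in lymphoma by 3.54 ± 0.97 (adjusted p = 0.0997) and Add2 by 3.84 ± 1.46 (adjusted p = 0.236), with Ank1 higher by 1.83 ± 0.99. All 3 lymphoma libraries stood above all 3 controls for these 3 genes, as 16.4% of all genes did, and 0 of 9 members passed in edgeR, against 1.69% of genes called and 1.62% called higher. Unadjusted p was under 0.05 for 2 members, and DESeq2 called 2. Globins differed by -0.46 to -0.31 and overlapped. This direction rests on WT control 3, without which they were higher in lymphoma by 2.06 to 2.14 (adjusted p = 0.212 to 0.245). The CD4 interaction called no member and 0% of genes in edgeR, and no member in DESeq2 or voom, with an unadjusted p under 0.05 for 1 member. It was -2.24 to -2.04 for the globins, or -4.86 to -4.42 without WT control 3, and -3.22 ± 1.44 for Slc4a1. With genotypes averaged, added after the values were seen, Klf1 rose by 2.53 ± 0.61 (adjusted p = 0.0336), 1 of 9 members against 7.18% of genes called and 5.72% called higher, while globins differed by -1.58 to -1.33 and, with the share of B identifiers as a covariate, by 0.45 to 0.68. Without WT control 3 the globins differed by -0.29 to -0.15. The Klf1 call was lost with the replicate number as a block (adjusted p = 0.0600), with the share of B identifiers as a covariate (0.101), with no filter (0.0913) and without any 1 of 7 libraries. Of other lists in that averaged comparison, 12 of 14 progenitor, 11 of 13 platelet, 8 mitosis and 6 neutrophil genes rose, 2 pan-T and 3 B cell genes fell, and their part was not tested.

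**Figure D3:**
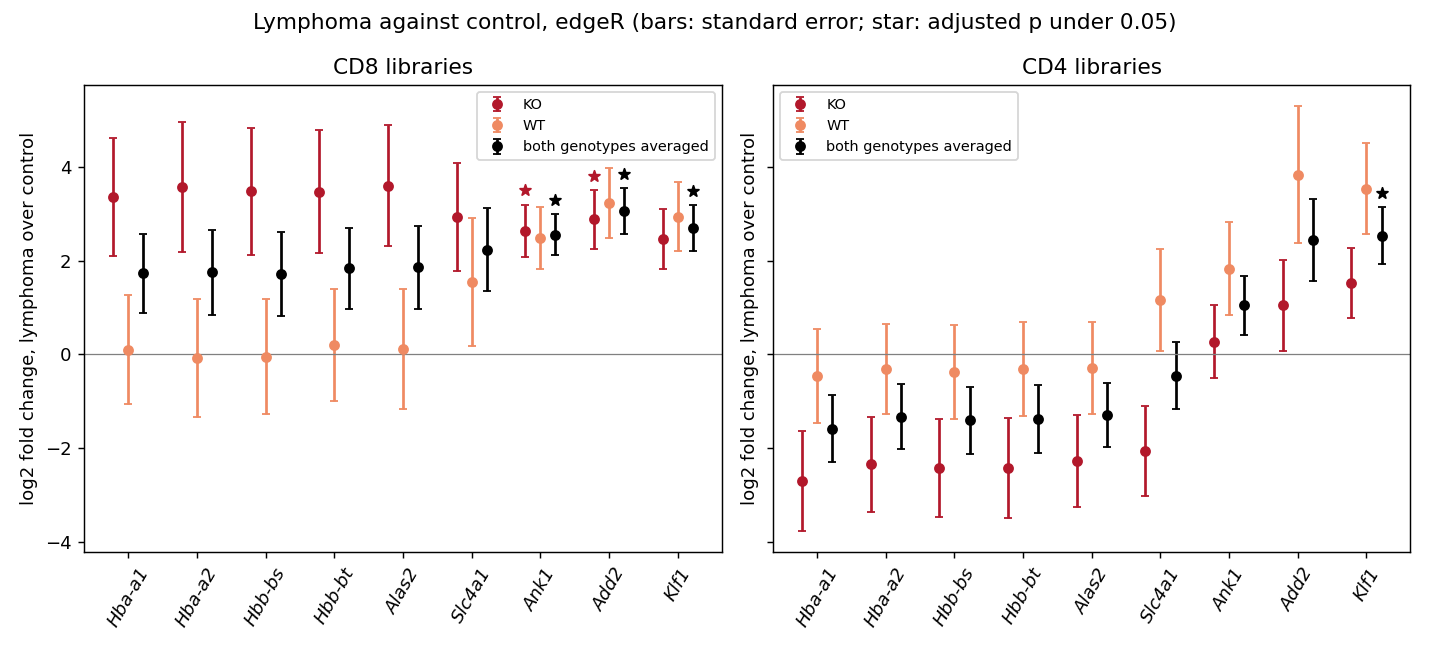
Difference between lymphoma and control for each erythroid gene, on the log2 scale with bars of 1 SE, in CD8 (left) and CD4 (right) libraries for KO mice, WT mice and both averaged; a star marks an adjusted p under 0.05. In CD4 KO mice the globins lie below 0 (Hba-a1 at -2.70), whereas Klf1 lies above 0 in every comparison.

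Knockout and wild-type mice were compared next, with the same libraries as above, so these differences are not independent of those given for lymphoma. Among CD4 controls all 9 members were higher in KO than in WT mice. Slc4a1 was higher by 4.30 ± 1.10 (adjusted p = 0.073), Ank1 by 3.36 ± 0.96 (adjusted p = 0.103), Klf1 by 3.30 ± 0.97 (adjusted p = 0.11), Add2 by 4.64 ± 1.42 (adjusted p = 0.123), Alas2 by 2.62 and the globins by 2.34 to 2.60. Klf1, Ank1 and Add2 were higher without overlap between genotypes, as 21.4% of all genes were. edgeR called 0 of 9, against 2.01% of genes (1.94% higher), with an unadjusted p under 0.05 for all 9, and DESeq2 called 4 and voom 5. Without CD4 WT control 3, 5 members passed, the globins among them at 4.72 to 5.16. Among macrophage genes 10 of 13 rose in the same comparison, and summed B cell genes stood at 888, 932 and 1142 CPM in KO controls and 76.1, 184 and 806 CPM in WT controls; their part in the erythroid values was not tested.

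Among CD8 controls Ank1 was higher in KO mice by 1.86 ± 0.68 (adjusted p = 0.244), Add2 by 2.00 ± 0.79 (adjusted p = 0.285) and Klf1 by 1.88 ± 0.76 (adjusted p = 0.299), without overlap, as 12.1% of all genes were. Globins were higher by 0.39 to 0.58, or by 1.93 to 2.18 without WT control 3. edgeR called 0 of 9, against 0.522% of genes (0.403% higher), with 3 members at an unadjusted p under 0.05 and none called by DESeq2 or voom. Between KO and WT lymphoma, CD8 globins were higher in KO mice by 3.78 to 4.03 (adjusted p = 0.183 to 0.192), Slc4a1 by 3.75 ± 1.21 (adjusted p = 0.171), Ank1 by 2.02 ± 0.54 (adjusted p = 0.118) and Klf1 by 1.42 ± 0.60 (adjusted p = 0.251). Without KO lymphoma 1 the globins were higher by 1.35 to 1.54 and Slc4a1 by 1.49. No member passed in edgeR there, against 0.245% of genes. All 9 had an unadjusted p under 0.05 and DESeq2 called 6, criteria to which that share does not apply. CD4 lymphoma libraries differed by 0.30 to 1.85 between KO and WT mice, with 0 members under an unadjusted p of 0.05, and 0% of genes called by edgeR. DESeq2 called none of the 9 and 85 genes in all, and without KO lymphoma 3 Klf1 turned to -0.063.

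Averaged over lymphoma and control, Ank1 rose in KO relative to WT mice in both co-receptors, by 1.94 ± 0.43 in CD8 (adjusted p = 0.0260) and 2.58 ± 0.64 in CD4 (adjusted p = 0.0395). Add2 rose in CD8 by 1.82 ± 0.49 (adjusted p = 0.0497). These are 2 of 9 members in CD8, against 6.45% of genes called (2.85% higher), and 1 of 9 in CD4, against 6.31% (5.29% higher). Klf1 was higher by 1.65 ± 0.49 in CD8 (adjusted p = 0.0675) and 2.30 in CD4 (adjusted p = 0.0502). This comparison too was added after the values were seen. With the replicate number as a block 1 member passed in CD8 and 0 in CD4, with voom or the share of B identifiers as a covariate 0 passed in CD8, with no filter 0 passed in CD4, and with 1 library left out 0 to 3 passed in CD8 and 0 to 6 in CD4. Summed macrophage genes ran from 1284 to 2115 CPM in CD8 KO and 292 to 1381 CPM in CD8 WT libraries, and from 1646 to 2414 CPM in CD4 KO and 709 to 1152 CPM in CD4 WT libraries, and their part was not tested.

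CD8 and CD4 libraries of the same mice were then set side by side. In KO lymphoma 1, 2 and 3 the CD8 library held 10.97, 3.77 and 0.340 times the globins of its CD4 partner, and in WT lymphoma 0.756, 0.380 and 0.602 times. The ratios were 0.243, 0.0963 and 0.106 in KO controls and 0.802, 0.918 and 0.425 in WT controls. Globins were thus higher in the CD4 library of 10 of the 12 pools, and KO lymphoma 1 and 2 were the exceptions. For Klf1 the ratios were 1.89, 1.07 and 0.539 in KO lymphoma, 0.679, 0.836 and 0.806 in WT lymphoma, 0.349, 0.361 and 0.744 in KO controls and 0.589, 3.90 and 0.912 in WT controls, the last set resting on few reads.

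Among KO controls the 4 globins and Alas2 were lower in CD8 than in CD4 libraries without overlap, at -3.19 to -2.90 on the log2 scale for the globins and -3.18 ± 1.24 for Alas2, where 24.5% of all genes were lower without overlap. Here 0 of 9 members passed in edgeR, against 4.95% of 13232 genes (2.6% lower). Unadjusted p was under 0.05 for 7 members, DESeq2 called none and voom 2. With the mouse pool as a block, the globins' adjusted p was 0.0581 to 0.0835. In KO lymphoma the globins were higher in CD8 than in CD4 libraries by 2.73 to 3.04, and again no member passed in edgeR, against 2.35% of genes, with 5 under an unadjusted p of 0.05 and none called by DESeq2 or voom. Without CD8 KO lymphoma 1 the globins were higher by 0.34 to 0.54. No member passed among WT controls (3.48% of genes) or WT lymphoma libraries (2.54% of genes), by unadjusted p, DESeq2 or voom either. The lymphoma response of CD8 minus that of CD4 cells was a comparison added after the values were seen. In KO mice it was 5.92 to 6.10 for the globins, 5.91 for Alas2 and 5.02 ± 1.61 for Slc4a1, with unadjusted p of 0.00285 to 0.00571 and an adjusted p of 0.818. Without CD8 KO lymphoma 1 it was 3.26 to 3.69 for the globins. For Klf1 this difference was 0.95 ± 1.04, and edgeR called no member and 0% of genes. Unadjusted p was under 0.05 for 7 members, and DESeq2 and voom called none. In WT mice no member of the same difference had an unadjusted p under 0.05, and none of these tools called one. Without CD8 KO lymphoma 1, Slc4a1 in CD8 against CD4 KO lymphoma turned to -0.13.

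**Figure D4:**
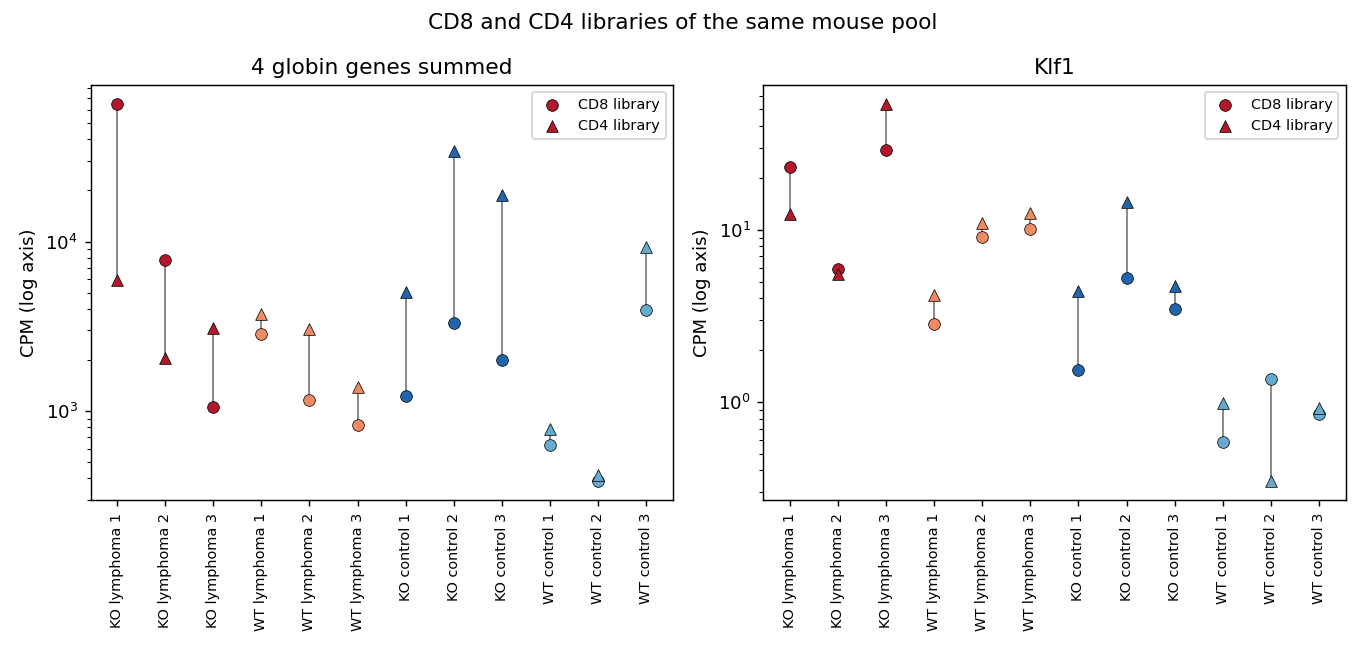
Summed globins (left, CPM, log axis) and Klf1 (right, CPM, log axis) in the CD8 library (circles) and the CD4 library (triangles) of each of the 12 mouse pools. Globins are 10.97 times as high in CD8 as in CD4 cells of KO lymphoma 1 and 0.0963 times as high in KO control 2, while KO lymphoma 3 has the highest Klf1 in both co-receptors.

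Values within pools of S mice alone were read after the globins had been seen high in B pools, and with no test. There, 3 WT lymphoma libraries stood above 2 WT control libraries for all 9 members in both co-receptors, as 20.8% of all genes did in CD8 and 25.3% in CD4 cells. CD8 globins summed to 832 to 2835 CPM in WT lymphoma and 386 to 629.9 CPM in WT controls, and CD4 globins to 1381 to 3747 CPM in WT lymphoma and 420.5 to 785 CPM in WT controls. The WT control library that overlapped lymphoma in the whole set, WT control 3, is a pool of B mice, so this split leaves out the highest WT control. Among KO pools of S mice, 2 lymphoma libraries stood against 1 control: in CD8 cells Klf1, Ank1, Add2, Slc4a1 and Hbb-bt were higher (35.1% of all genes) and the other members lay to both sides. In CD4 cells Klf1 and Add2 were higher (22% of all genes) and the 4 globins and Alas2 lower (32.3%). The share of B identifiers as a covariate was likewise added after the values were seen. With it, all 9 members rose in the averaged CD8 lymphoma comparison, as 9.27% of all genes did in that fit. Because the covariate adjusts for letters under which globins had been seen high, these calls are not separate support. The globins were higher there by 2.72 to 2.93. In the fit with no covariate and without KO lymphoma 1 they were higher by 0.41 to 0.64.

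Other genes of the red cell pathway were read from lists by role. In the averaged CD8 lymphoma comparison 6 of 13 heme synthesis genes tested rose and none fell, among them Abcb10, a mitochondrial transporter (1.37 ± 0.30), the pathway enzyme Cpox (0.74 ± 0.19), Tmem14c (0.49 ± 0.09) and the glycine carrier Slc25a38 (0.43 ± 0.11). Of 24 membrane genes 12 rose and 2 fell, with Icam4, an adhesion molecule of red cells, at 2.87 ± 0.55, the water channel Aqp1 at 2.70 ± 0.44, Ermap at 2.32 ± 0.47 and stomatin (Stom) at 2.00 ± 0.37. Of 20 regulators 11 rose and 1 fell, with Hemgn at 2.70 ± 0.58, Tal1, a transcription factor of blood stem and erythroid cells, at 2.52 ± 0.40, Cbfa2t3 at 1.81 ± 0.38 and Nfe2 at 1.72 ± 0.32. Of 16 iron and enzyme genes 11 rose, with the carbonic anhydrases Car1 at 2.62 ± 0.57 and Car2 at 2.26 ± 0.40, peroxiredoxin 2 (Prdx2) at 0.93 ± 0.19 and ferritin heavy chain (Fth1) at 0.63 ± 0.12. Among all genes tested there, 11.6% were called higher and 17.7% higher or lower. The medians were 0.63 for heme, 1.17 for membrane, 1.71 for regulators and 0.75 for iron and enzymes, beside -0.03 for all genes tested. Several of these genes, Tal1, Fth1, Prdx2 and Stom among them, are also expressed outside the erythroid lineage.

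Within single genotypes few of these genes passed. In CD8 KO lymphoma Prdx2 rose by 1.18 ± 0.26 (adjusted p = 0.0495), and no heme, membrane or regulator gene did. In CD8 WT lymphoma Tal1 rose by 2.86 ± 0.58 (adjusted p = 0.0445). In CD4 WT lymphoma Stom rose by 1.86 ± 0.36 (adjusted p = 0.0240), as did Cbfa2t3 (2.00 ± 0.42), Nfe2 (2.32 ± 0.52) and Gata2, a progenitor transcription factor (2.71 ± 0.58). In CD4 KO lymphoma none of the listed genes passed, where edgeR called 0% of all genes tested. Of all genes tested, 1.39% were called higher in CD8 KO, 1.26% in CD8 WT and 1.62% in CD4 WT lymphoma. In the averaged CD4 comparison no heme gene passed, and 4 of 26 membrane genes rose and 1 fell. Of regulators 5 of 20 rose, and of iron and enzyme genes 3 of 16. Among all genes tested there, 5.72% were called higher and 7.18% higher or lower. Those named by the smallest p were Stom (1.40 ± 0.24), Xk (1.13 ± 0.29), the iron sensor Tfr2 (1.83 ± 0.48), Gata2 (2.24), Nfe2 (1.56), Cbfa2t3 (1.47), Myb (1.34), Pklr, red cell pyruvate kinase (2.90), Car1 (2.72 ± 0.60) and Fth1 (0.39), while Add1, the alpha subunit of adducin, fell by 0.42 ± 0.11.

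Among the genes whose pattern was most like the mean of the 9 members over the 24 libraries, by Pearson correlation of log2 CPM, were Trim10 (0.975), Apol11b (0.958), Rec114 (0.952), Ube2l6 (0.942), Specc1 (0.938), Tmcc2 (0.935), Cd24a (0.931) and Nxpe2 (0.929). Trim10 is an erythroid RING finger protein, and Cd24a is a surface protein of red cell precursors and B cells.

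Each block had its own closest genes, listed by a rule added after the values were seen. Nearest to Klf1 were Tal1 (0.977), the histone gene Hist1h2ap (0.977), Aqp1 (0.975), and the cell division genes Cdca8 (0.966) and Cdc6 (0.964). Among those nearest to Hbb-bs were Ube2o (0.934), Bpgm, which makes the hemoglobin ligand 2,3-bisphosphoglycerate (0.933), Fam220a (0.932) and Slc25a37, the mitochondrial iron importer of erythroid cells (0.924). Tal1 stood at 52.3, 18.9 and 76.0 CPM in CD8 KO lymphoma, 13.0, 27.4 and 40.3 CPM in CD8 WT lymphoma, 8.71, 13.8 and 9.52 CPM in CD8 KO controls and 2.18, 5.52 and 3.14 CPM in CD8 WT controls. It was highest in KO lymphoma 3 of both co-receptors, at 76.0 CPM in CD8 and 129.8 CPM in CD4 cells, as Klf1 was.

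Whole lists of other genes followed the blocks to different degrees, and several followed both. The summed level of Klf1, Ank1 and Add2 correlated over the 24 libraries with that of 15 mitosis genes at 0.949 (0.880 after group means were taken out). It correlated with iron and enzyme genes at 0.938 (0.819), heme synthesis genes at 0.905 (0.899) and progenitor genes at 0.872 (0.622). For neutrophil genes the values were 0.764 (0.463), for platelet genes 0.720 (-0.398), for macrophage genes 0.698 (0.0495) and for membrane genes 0.547 (0.783). Pan-T genes stood at -0.802 (-0.776), but B cell genes only at 0.154 (-0.0226). The globin sum correlated with B cell genes at 0.812 (0.803), with membrane genes at 0.722 (0.662), with iron and enzyme genes at 0.666 (0.523), with heme synthesis genes at 0.620 (0.428), with neutrophil genes at 0.574 (0.634), with mitosis genes at 0.375 (0.0525) and with pan-T genes at -0.398. Summed mitosis genes stood at 1109, 349 and 987 CPM in CD8 KO lymphoma, 249, 387 and 542 CPM in CD8 WT lymphoma, 213, 349 and 180.5 CPM in CD8 KO controls and 174, 138 and 141 CPM in CD8 WT controls. Summed B cell genes stood at 1806, 486 and 120.2 CPM in CD8 KO lymphoma, 283, 120.5 and 138 CPM in CD8 WT lymphoma, 392, 353 and 442 CPM in CD8 KO controls and 62.6, 254.5 and 747 CPM in CD8 WT controls. In CD8 cells WT control 3 and KO lymphoma 1 thus were high in B cell genes and globins alike. CD8 KO lymphoma 3 was high in mitosis genes and Klf1 and low in B cell genes. The blocks were not cleanly parted, since CD8 KO lymphoma 1 was highest of the CD8 libraries in mitosis genes (1109 CPM). It was also highest there in summed Klf1, Ank1 and Add2 (78.3 CPM, against 59.6 CPM in KO lymphoma 3). The CD4 library of KO lymphoma 1 held 297 CPM of B cell genes, beside a median of 290 CPM over all libraries. The points share mouse pools and library totals, and the part of B cells or dividing cells in either block was not tested.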

How the data were processed

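RNA of splenic T lymphocytes isolated with a T cell kit was sequenced as 3′ tags (Lexogen QuantSeq FWD), per the labels' protocols, in 24 libraries. The deposited table holds the authors' estimated counts per gene and library, with no normalization named. The submitters' processing notes name Salmon 0.11.3 and the human build GRCh38 without saying what each was used for, and no position here comes from that build. Of 34113 genes, 2 held a letter in place of a number and were dropped, and 11473 had no count in any library. CPM is a count over the library total. Counts as deposited were tested in edgeR 4.0.16 (R 4.3.3) with filterByExpr (minimum count 10, minimum total 15), TMM scaling, the robust quasi-likelihood test and Benjamini-Hochberg adjustment over all genes kept at 0.05. CD8 (12650 genes) and CD4 (12808 genes) libraries had a fit of 12 each, and CD8 against CD4 used all 24 (13232 genes). TMM factors ran from 0.903 to 1.08 in CD4, 0.972 to 1.04 in CD8 and 0.947 to 1.12 in all libraries. SE is the log2 difference over the root of F.

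The 9 members and the lists were chosen with earlier results of these data known. Named genes were all members, Atm, Cd4 and Cd8a, up to 4 genes of each erythroid list that passed with the smallest p, and the 10 genes most like the members' mean log2 CPM (prior count 2), of which some are not reported here. Averaged comparisons, their list genes, the lymphoma response of CD8 minus that of CD4 cells, and likeness to Klf1 and Hbb-bs were added after the data were seen. So were the alternatives with the share of B identifiers as a covariate and with globins left out of library totals. Each library, a pool of 1 to 3 mice, was 1 replicate, and p-values measure the spread between libraries. CD8 and CD4 libraries share pools by label (residual correlations of -0.018 to 0.525 over 12 pairs); replicate numbers within a co-receptor join different mice (-0.212 to 0.322). Alternatives were DESeq2 1.42.0, voom in limma 3.58.1, other scalings and filters, only the libraries compared, blocks for replicate number or pool, the share of B identifiers as a covariate, and each library left out. The code was tested on simulated counts of this design.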

Additional observations from a re-analysis of the deposited data

How the results depend on the processing

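Counts are of members called, out of 9. In CD8 KO lymphoma against control, 2 as reported became 8 with DESeq2, 5 with the share of B identifiers as a covariate, 1 with voom and with no filter, and 0 with total count scaling, with only the 6 libraries compared and with the replicate block; leaving out 1 library gave 0 to 3. In CD8 WT lymphoma against control, 0 became 3 with DESeq2, 3 with only the 6 libraries and 1 with the B covariate, and 0 to 2 with 1 library left out (2 without WT lymphoma 1). CD4 WT lymphoma gave 2 with DESeq2 and 2 with only the 6 libraries. CD4 control KO against WT gave 4 with DESeq2, 5 with voom, 1 with only the 6 libraries, 4 with the B covariate and 0 to 5 with 1 library left out. CD8 lymphoma KO against WT gave 6 with DESeq2 and 0 to 2 with 1 library left out, 2 without KO lymphoma 2. CD8 against CD4 KO controls gave 2 with voom. The averaged CD8 lymphoma comparison went from 3 to 9 with the B covariate. The averaged CD4 lymphoma comparison, 1 as reported, gave 2 with DESeq2, 0 with no filter, 0 with the replicate block, 0 with the B covariate and 0 to 1 with 1 library left out. Averaged KO against WT in CD4, 1 as reported, gave 4 with DESeq2, 2 with DESeq2 size factors, 2 with globins left out of library totals, 4 with total count scaling, 0 with no filter, 0 with the replicate block, and 0 to 6 with 1 library left out (6 without WT control 3). In CD8, 2 as reported became 4 with DESeq2, 1 with globins left out, no filter, the replicate block, total count or upper-quartile scaling, 0 with voom and with the B covariate, and 0 to 3 with 1 library left out. Of 3275 single differences under alternatives 134 changed sign, 125 of them of a difference no larger than its own SE, and 65 of the 134 are of differences whose value is not given. In CD4 WT lymphoma, leaving out 1 library moved Alas2 between -0.82 and 2.08, Hba-a1 between -1.001 and 2.14, Hba-a2 between -0.84 and 2.06, Hbb-bs between -0.91 and 2.07, and Hbb-bt between -0.84 and 2.12, each highest without WT control 3. The same 5 genes in that order turned to 0.79, 0.55, 0.54, 0.54 and 0.60 with voom, 0.13, 0.16, 0.19, 0.12 and 0.18 with the replicate block, and 1.74, 1.77, 1.70, 1.77 and 1.88 with the B covariate. In CD8 WT lymphoma the ranges were -0.49 to 1.68, -0.47 to 1.52, -0.82 to 1.67, -0.79 to 1.71 and -0.49 to 1.67, again highest without WT control 3. There Alas2, Hba-a1 and Hbb-bt turned to -0.19, -0.12 and -0.084 with the replicate block, and Hba-a2 and Hbb-bs to 1.57 and 1.57 with the B covariate. In CD8 control KO against WT, Hba-a2 ran from -0.087 to 2.14 and Hbb-bs from -0.064 to 2.18 with 1 library left out. In CD4 lymphoma KO against WT, Hba-a1 ran from -0.10 to 0.71, Hba-a2 from -0.16 to 0.58, Hbb-bs from -0.17 to 0.71 and Hbb-bt from -0.021 to 0.81, lowest without KO lymphoma 1, and they turned to -0.27, -0.26, -0.25 and -0.15 with the B covariate, while Klf1 ran from -0.063 (without KO lymphoma 3) to 1.79. In CD4 KO lymphoma, Add2 ran from -0.51 to 2.28 and Ank1 from -1.18 to 1.16, both lowest without KO lymphoma 3, Ank1 turned to -0.29 with voom, and Slc4a1 to 0.12 with the B covariate. In the averaged CD4 lymphoma comparison the B covariate gave Alas2 0.65, Hba-a1 0.45, Hba-a2 0.46, Hbb-bs 0.54, Hbb-bt 0.68 and Slc4a1 1.35, and Slc4a1 was 0.065 with voom and -0.74 to 0.20 with 1 library left out. In CD8 against CD4 KO lymphoma, Slc4a1 ran from -0.13 (without CD8 KO lymphoma 1) to 2.68. The cause was not tested. Over all genes, CD8 KO lymphoma had 1499 calls with DESeq2 and 0 to 1861 with 1 library left out. The pool block, where CD8 and CD4 libraries share mice, changed no member call in CD8 against CD4. Total count scaling moved the median of all genes by over 0.1 in CD8 against CD4 KO lymphoma alone (-0.12). Low counts of Klf1 and Add2 in WT controls limit the precision of their differences.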

Other observations

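KO lymphoma 3 stood apart in both of its libraries. It was lowest in Atm (40.1 CPM in CD8 and 26.9 CPM in CD4 cells), highest in Klf1 (29.1 and 53.9 CPM), and highest in blood progenitor genes (413 and 479 CPM), while its globins stood at 1054 and 3103 CPM. In KO lymphoma 1 the CD8 library exceeded the CD4 library of the same mice in summed neutrophil genes (3800.3 against 925 CPM), B cell genes (1806 against 297 CPM) and globins (64953 against 5921 CPM), and was lower in pan-T genes (1467 against 2765 CPM). These are values of single libraries with no test.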
